A study of Mus musculus with 23 samples.

Results

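Levels of 5 long noncoding transcripts were followed across 23 RNA-seq libraries of primary mouse embryonic fibroblasts that carried the wild-type glucocorticoid receptor (GR) or 1 of 3 mutant forms. Gm49599, 2610037D02Rik and Gm28119 were the noncoding or unclassified genes most raised in vehicle-treated GRL/L cells relative to vehicle-treated GRwt/wt cells among those with a mean of at least 1 CPM (counts-per-million, the count scaled to library size) and groups that did not overlap, and Malat1 and Neat1, both retained in the nucleus, were set beside them for comparison. They were 5 of the 55487 genes in the deposited count table, and all 5 were among the 15748 genes that passed the filter on low counts, which the GRL/L and GRD+L/D+L libraries alone were enough to meet for the chosen transcripts. Because the level of the first 3 in vehicle chose them, that level is described below without a test.

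The fibroblasts came from FVB/NJ embryos at E13.5, after removal of the head and organs, and the embryos came from heterozygous intercrosses. GRwt/wt cells carried the unaltered receptor. GRD/D cells carried an alanine-to-threonine change in the DNA-binding domain, GRL/L cells a ligand-binding domain in which an isoleucine was replaced by alanine, and GRD+L/D+L cells both changes. The L change was made by CRISPR in zygotes that carried the D allele, and the D+L allele came from a single founder pup, so the L change and the origin of those lines cannot be told apart. The embryos came from separate mice, with 3 primary cultures per genotype, and cells were treated with vehicle or with 10 nM dexamethasone (Dex), a synthetic glucocorticoid, for 5 h. Every group held 3 libraries except vehicle-treated GRD/D, which held 2. Nothing in the labels places the Dex and vehicle libraries of a genotype in separate cultures, so the Dex libraries are not an independent set of animals.

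Long noncoding RNAs are transcribed and often spliced like messenger RNAs but encode no known protein. Malat1 is an abundant RNA of nuclear speckles, the bodies in which splicing factors concentrate, and Neat1 is the RNA scaffold of paraspeckles. Many other noncoding gene models lie inside the introns of protein-coding or host genes, where short stretches of precursor RNA can be counted toward them. In bulk RNA, fewer cells of a type and less RNA per cell cannot be told apart.

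The loci are given in GRCm38 (mm10) with the GENCODE M21 annotation. Gm28119 (ENSMUSG00000100158, class sense intronic) lies at chr9:41581908-41582283 on the plus strand, within 3110039I08Rik (ENSMUSG00000074415), which RefSeq names Mir100hg and which is the host gene of the miR-100 and miR-125b-1 cluster. Its annotated exon sequence is 298 bases in 2 blocks, none of which overlaps an exon of 3110039I08Rik. The first block, of 130 bases, contains the whole Mir125b-1 hairpin at chr9:41581926-41582002. It is shown with the hairpin in capitals because it holds the precursor of miR-125b.
Gm28119 first exon: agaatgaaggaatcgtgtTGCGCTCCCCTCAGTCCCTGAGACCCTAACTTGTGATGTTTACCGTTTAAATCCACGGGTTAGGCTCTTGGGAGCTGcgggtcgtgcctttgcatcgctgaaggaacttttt
The mature miRNAs of Mir100 and Mir125b-1, from RefSeq on GRCm38.p6, are shown with the seed (bases 2 to 8) in capitals. No pair of these 4 shares a seed, and other miRNAs of the cluster were not looked up.
miR-125b-5p: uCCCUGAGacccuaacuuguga
miR-125b-1-3p: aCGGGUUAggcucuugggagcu
miR-100-5p: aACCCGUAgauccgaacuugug
miR-100-3p: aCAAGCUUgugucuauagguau
The separate Mir125b-1 entry held 0 counts in all 23 libraries, and the libraries do not measure the mature miRNAs.

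Gm49599 (ENSMUSG00000116908) is in the GENCODE class TEC, which holds gene models still awaiting experimental evidence. It is a single exon of 5095 bases at chr16:36875140-36880234 on the plus strand, and it starts at the same base as Golgb1 (ENSMUSG00000034243), which encodes the Golgi membrane protein giantin. The first 499 bases are shared with the first exon of Golgb1, and the remaining 4596 bases lie in the first intron of Golgb1. The sequence across that boundary is shown with the bases annotated to Gm49599 alone in capitals, since reads within them cannot come from Golgb1 RNA spliced as annotated.
Gm49599 across the end of the first exon of Golgb1: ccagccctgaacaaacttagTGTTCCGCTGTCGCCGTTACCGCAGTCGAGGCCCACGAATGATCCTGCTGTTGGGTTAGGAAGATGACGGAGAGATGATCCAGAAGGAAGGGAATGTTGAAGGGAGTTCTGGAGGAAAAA

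2610037D02Rik (ENSMUSG00000097536) is a lincRNA, a long noncoding RNA between genes, at chr15:96134819-96284495 on the minus strand. Its 7 exon blocks total 5020 bases. Its span also holds the noncoding gene 4833422M21Rik on the same strand, with which it shares 0 exon bases. The nearest gene that does not overlap it, Arid2, which encodes a subunit of the PBAF chromatin remodelling complex, starts 3023 bases away and runs in the opposite direction. The start of one of its transcripts is shown with the first 60 bases in capitals.
2610037D02Rik-202 start: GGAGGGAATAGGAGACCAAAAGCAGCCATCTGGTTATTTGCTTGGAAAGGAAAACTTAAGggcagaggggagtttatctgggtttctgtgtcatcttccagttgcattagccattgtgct

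Malat1 (ENSMUSG00000092341, chr19:5795690-5802672) and Neat1 (ENSMUSG00000092274, chr19:5824708-5845478) lie 22036 bases apart on the minus strand. Malat1 and the long Neat1 transcript are known to end in a U-rich stretch that pairs with an A-rich tail in a triple helix, in place of a poly(A) tail. The longest run of the last 120 bases of the long Neat1 transcript that was also found in Malat1 is 16 bases, and it is shown in capitals within its surroundings.
Neat1 tract: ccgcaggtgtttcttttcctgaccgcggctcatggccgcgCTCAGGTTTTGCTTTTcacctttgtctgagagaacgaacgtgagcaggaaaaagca
Malat1 tract: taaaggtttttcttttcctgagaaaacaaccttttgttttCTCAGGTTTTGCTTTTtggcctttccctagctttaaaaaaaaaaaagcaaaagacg
The run lay 43 bases before the annotated end of Neat1 and 328 bases before that of Malat1.

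Library totals ranged from 16452539 to 23117080 counts. One library, vehicle-treated GRwt/wt replicate 1, stood apart, with a highest Spearman correlation with any other library of 0.916 against at least 0.973 for the rest. Vehicle-treated GRwt/wt replicate 3 held 3380 CPM of the macrophage gene Lyz2, whereas the other GRwt/wt libraries held 6.68 to 63.6 CPM. Summed fibroblast markers were high in every library (44200 to 78600 CPM), whereas summed macrophage markers ranged from 8.79 CPM in a Dex-treated GRD+L/D+L library to 5630 CPM in vehicle-treated GRwt/wt replicate 3. Under Dex the 14 macrophage markers summed to 19.3 to 117 CPM in GRwt/wt, 312 to 1970 CPM in GRD/D, 349 to 867 CPM in GRL/L and 8.79 to 91.7 CPM in GRD+L/D+L. Relative to GRwt/wt under Dex their median LFC was 3.71 in GRL/L, with 14 of 14 above 0, 4.48 in GRD/D, with 14 of 14 above 0, and -0.07 in GRD+L/D+L, with 7 of 14 above 0. By edgeR 0 of 14 were called in each, and 10, 14 and 0 had an unadjusted p under 0.05. Summed epithelial, endothelial and erythroid markers did not exceed 20.9 CPM in any library. Summed myogenic markers reached 210 CPM in GRwt/wt and at most 19.5 CPM in the other genotypes. Summed neural markers were at 119 to 365 CPM, and the 6 neural genes had a median LFC of -1.17 in both GRL/L and GRD+L/D+L relative to GRwt/wt under Dex, with 0 called by edgeR (1 and 2 had an unadjusted p under 0.05). Tubb3, a neuronal tubulin, was lower than in GRD/D under Dex (LFC -1.44 in GRL/L and -1.5 for GRD+L/D+L). In these contrasts 0.756% and 1.85% of all genes, without the transcripts followed here, were called lower. Of 14 fibroblast markers only S100a4 was called against GRwt/wt under Dex, and lower (LFC -2.25 in GRL/L and -2.12 for GRD+L/D+L). Against GRwt/wt 1.23% and 1.87% of all genes, counted in the same way, were called lower. Of the 14 fibroblast markers, 9 and 8 had an LFC above 0. The part of these markers in the results below was not tested. Both doubtful libraries were vehicle-treated GRwt/wt.

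The level of Gm49599 in vehicle-treated GRwt/wt libraries was 0, 0.161 and 0.589 CPM. In vehicle-treated GRL/L libraries it was 6.5, 7.16 and 7.7 CPM, and in GRD+L/D+L it was 4.15, 3.98 and 3.47 CPM. The 2 vehicle-treated GRD/D libraries held 0.296 and 0.931 CPM. All 6 vehicle libraries with the L change were therefore above the 5 without it. Under Dex the GRwt/wt libraries held 0.152, 0.609 and 0.0624 CPM of Gm49599, and the GRD/D libraries 0.4, 0.64 and 0.597 CPM. The GRL/L libraries held 5.25, 9.29 and 6.65 CPM under Dex, and the GRD+L/D+L libraries 5.11, 2.82 and 3.73 CPM. The same order of genotypes was thus seen with and without ligand.

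2610037D02Rik was the least abundant of the 5, with 439 counts summed over all libraries. Its vehicle levels were 0, 0.107 and 0.136 CPM in GRwt/wt, 0.296 and 0.414 CPM in GRD/D, 2.0, 2.42 and 2.64 CPM in GRL/L, and 1.35, 1.01 and 1.0 CPM in GRD+L/D+L. Under Dex its levels were 0.202, 0.375 and 0.125 CPM in GRwt/wt, 0.4, 0.492 and 0.271 CPM in GRD/D, 1.45, 2.32 and 1.86 CPM in GRL/L, and 1.69, 1.32 and 1.43 CPM in GRD+L/D+L. In neither treatment did the libraries with the L change overlap those without it. The GRL/L libraries lay above the GRD+L/D+L libraries in vehicle, but the groups overlapped under Dex.

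Gm28119 was at 0, 0.376 and 0.0906 CPM in vehicle-treated GRwt/wt, 0.0985 and 0.672 CPM in GRD/D, 4.16, 3.61 and 4.65 CPM in GRL/L, and 2.8, 2.47 and 2.94 CPM in GRD+L/D+L. Under Dex it was at 0.0505, 0.515 and 0.749 CPM in GRwt/wt, 0.4, 0.148 and 0.38 CPM in GRD/D, 4.36, 4.54 and 6.06 CPM in GRL/L, and 3.81, 3.56 and 1.89 CPM in GRD+L/D+L. Here too every library with the L change exceeded every library without it.

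Malat1 was far more abundant and its groups overlapped more. In vehicle it was at 18.3, 188 and 261 CPM in GRwt/wt, 190 and 327 CPM in GRD/D, 681, 635 and 631 CPM in GRL/L, and 260, 299 and 493 CPM in GRD+L/D+L. Under Dex it was at 132, 221 and 260 CPM in GRwt/wt, 171, 171 and 287 CPM in GRD/D, 506, 624 and 631 CPM in GRL/L, and 342, 368 and 544 CPM in GRD+L/D+L. The low GRwt/wt value of 18.3 CPM was in the library that stood apart, which also held 0 counts of the 3 chosen transcripts. In both treatments the GRL/L libraries were above all GRwt/wt and GRD/D libraries, while vehicle-treated GRD+L/D+L libraries overlapped them.

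Neat1 had another order of genotypes, with the lowest means in GRD/D. Its vehicle levels were 113, 215 and 164 CPM in GRwt/wt, 104 and 132 CPM in GRD/D, 242, 192 and 240 CPM in GRL/L, and 244, 168 and 201 CPM in GRD+L/D+L. Under Dex they were 209, 261 and 200 CPM in GRwt/wt, 79.8, 61.2 and 112 CPM in GRD/D, 225, 195 and 287 CPM in GRL/L, and 319, 177 and 231 CPM in GRD+L/D+L. All 3 Dex-treated GRD/D libraries were below the libraries of the other 3 genotypes under Dex, which overlapped each other. How many of all genes show this separation, or that of Malat1 in GRL/L, was not counted, so nothing is read from either.

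**Figure D1:**
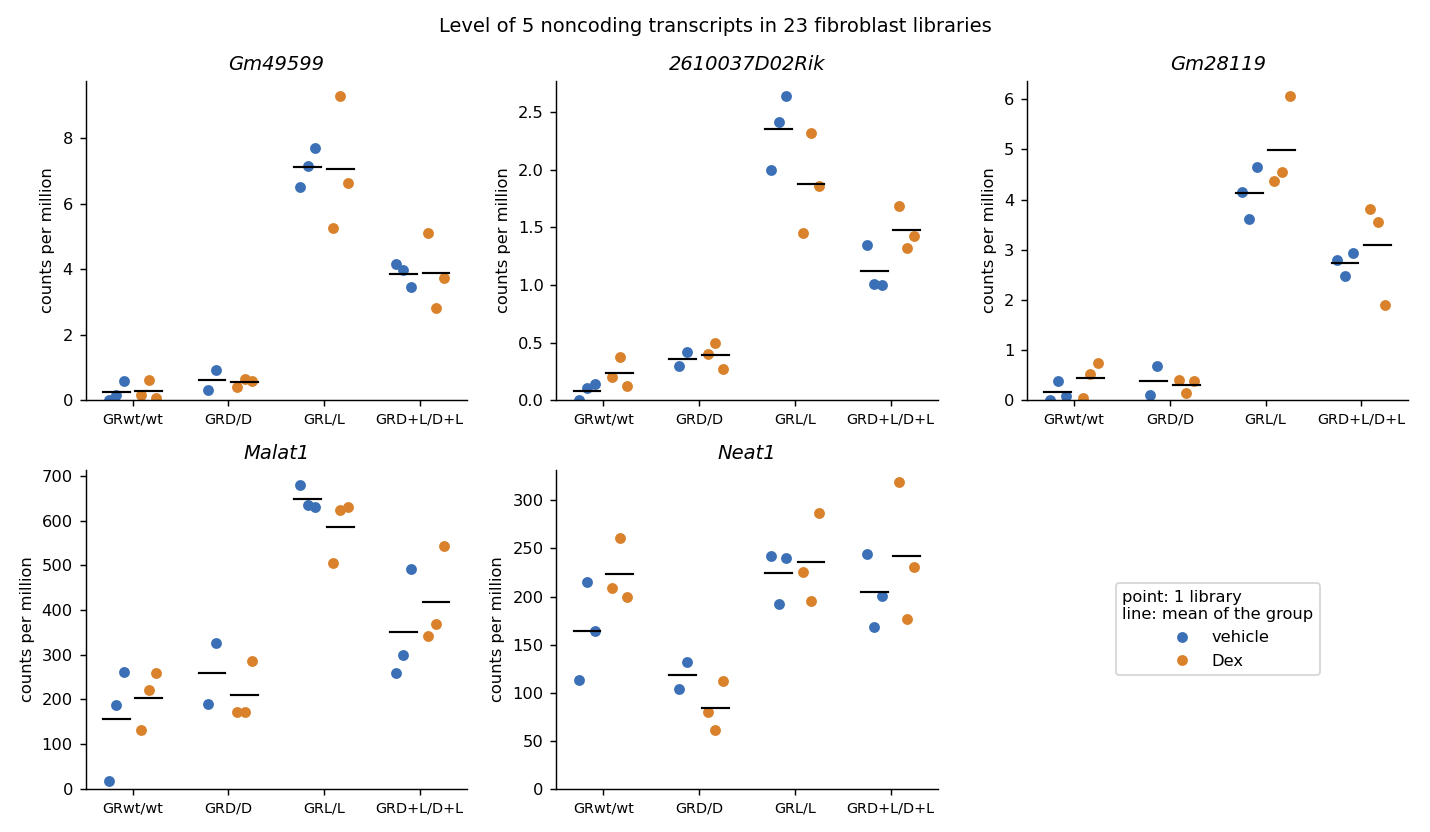
Level of each of the 5 transcripts in CPM (vertical axis) in every library, by genotype, with vehicle in blue, Dex in orange and a line at the group mean. Gm49599, 2610037D02Rik and Gm28119 are below 1 CPM in all 11 GRwt/wt and GRD/D libraries and at or above 1 CPM in all 12 GRL/L and GRD+L/D+L libraries, whereas the Malat1 and Neat1 groups overlap.

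Over both treatments, the 12 libraries with the L change held 2.82 to 9.29 CPM of Gm49599 against 0 to 0.931 CPM in the other 11. The ranges for 2610037D02Rik were 1.0 to 2.64 CPM and 0 to 0.492 CPM, and those for Gm28119 were 1.89 to 6.06 CPM and 0 to 0.749 CPM. Such a separation, all 12 above all 11, was seen in 4.63% of the genes tested, and the 3 transcripts were chosen on the vehicle-treated GRL/L and GRwt/wt libraries among them, so nothing is read from it. Malat1 (260 to 681 against 18.3 to 327 CPM) and Neat1 (168 to 319 against 61.2 to 261 CPM) overlapped.

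Levels of different genes are comparable only per length. Per kilobase of annotated exon, the mean levels in Dex-treated GRL/L cells were 84.1 CPM for Malat1, 16.7 CPM for Gm28119, 11.3 CPM for Neat1, 1.39 CPM for Gm49599 and 0.374 CPM for 2610037D02Rik. In Dex-treated GRwt/wt cells the per-kilobase means were 29.3 CPM for Malat1, 10.8 CPM for Neat1, 1.47 CPM for Gm28119, 0.0538 CPM for Gm49599 and 0.0466 CPM for 2610037D02Rik. Per kilobase, Gm28119 was thus above Neat1 in GRL/L cells and below it in GRwt/wt cells, while Gm49599 and 2610037D02Rik lay close together at the bottom in GRwt/wt cells. This order rests on the annotated exon lengths, which are 298 bases for Gm28119 and 20771 bases for Neat1. An RNA shorter than annotated would have a higher level per kilobase.

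In the contrast that chose them, vehicle-treated GRL/L against GRwt/wt, the log2 fold changes (LFC) were 4.74 for Gm49599, 4.71 for 2610037D02Rik and 4.69 for Gm28119. In that contrast 4.93% of the genes tested were called higher. The next genes of the same ranking, which required a mean of at least 1 CPM and groups that did not overlap, were Gm38020 at 4.45 and Gm38372 at 4.40, both of class TEC. Without the requirement on level the 3 transcripts ranked 8, 9 and 10. The counts pooled over the 3 GRL/L and the 3 GRwt/wt libraries were 399 and 16 for Gm49599, 132 and 5 for 2610037D02Rik, and 232 and 9 for Gm28119. The same vehicle-treated GRwt/wt libraries served the other genotypes, and against them the LFCs in GRD+L/D+L were 3.86, 3.64 and 4.09 and in GRD/D 1.21, 2.00 and 1.28, in the same order. Malat1 had LFCs of 2.06 in GRL/L, 1.17 in GRD+L/D+L and 0.73 in GRD/D in vehicle, of which the first met the call thresholds and was 1.53 without vehicle-treated GRwt/wt replicate 1 (1.17 became 0.66), and Neat1 of 0.46, 0.32 and -0.47.

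The Dex-treated libraries, which the choice did not use, were compared with edgeR's quasi-likelihood test. Calls required |LFC| ≥ 1 and an adjusted p-value (Benjamini-Hochberg, over all genes tested) of at most 0.05. Relative to GRwt/wt under Dex, GRL/L cells had higher Gm49599 (LFC 4.60 ± 0.74 SE, adjusted p = 0.00243). The LFC of 2610037D02Rik was 2.94 ± 0.47 (adjusted p = 0.00235) and that of Gm28119 was 3.51 ± 0.74 (adjusted p = 0.0111). These were 3 of 5 called higher, and 1.37% of all genes tested were called higher. The GRL/L libraries pair by replicate number across treatments, so these calls are not independent of the choice. Here and in the contrasts that follow, the count of members called is not read against the share of all genes, because the 3 were chosen for a low GRwt/wt and a high GRL/L level and could pass the filter through the libraries with the L change. All 3 calls were kept when any single library was left out. Malat1 did not pass, with an LFC of 1.52 ± 0.57 (adjusted p = 0.119). It passed without vehicle-treated GRwt/wt replicate 1 (LFC 1.52, adjusted p = 0.00302) and when only the 2 groups were fitted (LFC 1.51, adjusted p = 0.0227). Neat1 had an LFC of 0.08 ± 0.26 (adjusted p = 0.887).

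In GRD+L/D+L against GRwt/wt under Dex, the same 3 of 5 transcripts were called higher, and 0.876% of all genes were. Gm49599 had an LFC of 3.74 ± 0.72 (adjusted p = 0.00839), 2610037D02Rik of 2.60 ± 0.47 (adjusted p = 0.00554) and Gm28119 of 2.82 ± 0.73 (adjusted p = 0.0367). All 3 calls were lost when only the 2 groups were fitted (LFC 3.75, 2.61 and 2.82, adjusted p = 0.0913, 0.0845 and 0.132). The Gm28119 call was also lost without any one of the 3 Dex-treated GRwt/wt libraries, any one of the 3 Dex-treated GRD+L/D+L libraries, or replicate 1 of either GRL/L group (adjusted p from 0.0517 to 0.118). Malat1 did not pass (LFC 1.03 ± 0.56, adjusted p = 0.305) but was called without vehicle-treated GRwt/wt replicate 1 (LFC 1.04, adjusted p = 0.0247), and Neat1 had an LFC of 0.12 ± 0.26 (adjusted p = 0.845).

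The DNA-binding domain change alone was not accompanied by a call for the 3 chosen transcripts (0.0127% of all genes were called higher). Relative to GRwt/wt under Dex, GRD/D cells had LFCs of 0.93 ± 0.74 for Gm49599 (adjusted p = 0.778, with LFCs from 0.51 without Dex-treated GRwt/wt replicate 3 to 2.25 without replicate 2), 0.69 ± 0.49 for 2610037D02Rik (adjusted p = 0.716) and -0.48 ± 0.79 for Gm28119 (adjusted p = 0.948). Malat1 was at 0.04 ± 0.55 (adjusted p = 0.995). Neat1 was lower, with an LFC of -1.40 ± 0.27 (adjusted p = 0.0352), which made it 1 of 5 called lower where 0.241% of all genes were. That call was lost in 12 of the 23 fits that left out a single library, with adjusted p-values from 0.0511 to 0.198.

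Against GRD/D under Dex, GRL/L cells had 4 of 5 transcripts called higher, and 1.94% of all genes were called higher. The LFCs were 3.67 ± 0.69 for Gm49599 (adjusted p = 0.00484), 2.25 ± 0.45 for 2610037D02Rik (adjusted p = 0.00653), 3.99 ± 0.77 for Gm28119 (adjusted p = 0.00549) and 1.48 ± 0.27 for Neat1 (adjusted p = 0.00388). Malat1 had a difference of the same size as Neat1 with a larger error (LFC 1.48 ± 0.57, adjusted p = 0.125), and was called without vehicle-treated GRwt/wt replicate 1 (adjusted p = 0.00323) and when only the 2 groups were fitted (adjusted p = 0.003). In GRD+L/D+L against GRD/D under Dex the same 4 of 5 were called higher, and 1.75% of all genes were. The LFCs were 2.81 ± 0.68 for Gm49599 (adjusted p = 0.0191), 1.91 ± 0.45 for 2610037D02Rik (adjusted p = 0.0164), 3.31 ± 0.76 for Gm28119 (adjusted p = 0.0152) and 1.52 ± 0.27 for Neat1 (adjusted p = 0.00375). Malat1 had an LFC of 0.99 ± 0.56 (adjusted p = 0.294) and was called without vehicle-treated GRwt/wt replicate 1 (LFC 1.00, adjusted p = 0.0279). Gm49599 and Gm28119 lost this call without any one of the 3 Dex-treated GRD/D libraries, with adjusted p from 0.0656 to 0.0894 and from 0.0527 to 0.0767. 2610037D02Rik lost it without Dex-treated GRD/D replicate 1 or 3 (adjusted p = 0.0622 and 0.0781). In vehicle, where GRD/D had 2 libraries, edgeR called 0 of 5 in the same contrast (0.324% of all genes were called higher), although 4 of 5 had an unadjusted p under 0.05 and DESeq2 called the 3 chosen transcripts. The edgeR values were LFCs of 2.65 ± 0.78, 1.64 ± 0.52 and 2.82 ± 0.86 for the 3 chosen transcripts in the same order and adjusted p of 0.103, 0.121 and 0.112. Without vehicle-treated GRwt/wt replicate 1 all 3 were called there (adjusted p = 0.0155, 0.0163 and 0.029), and without replicate 3 Gm49599 was (adjusted p = 0.0365).

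None of the 5 differed by the test between the genotypes that share the L change, where 0.121% of all genes were called in either direction. In GRL/L against GRD+L/D+L under Dex the LFCs were 0.86 ± 0.61 for Gm49599, 0.34 ± 0.41 for 2610037D02Rik, 0.69 ± 0.65 for Gm28119, 0.49 ± 0.55 for Malat1 and -0.04 ± 0.26 for Neat1, with adjusted p of at least 0.851. By edgeR 0 of 5 also passed at an unadjusted p of 0.05, and DESeq2 called 0, but the SEs of the first 3 leave room for differences past the LFC threshold.

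**Figure D2:**
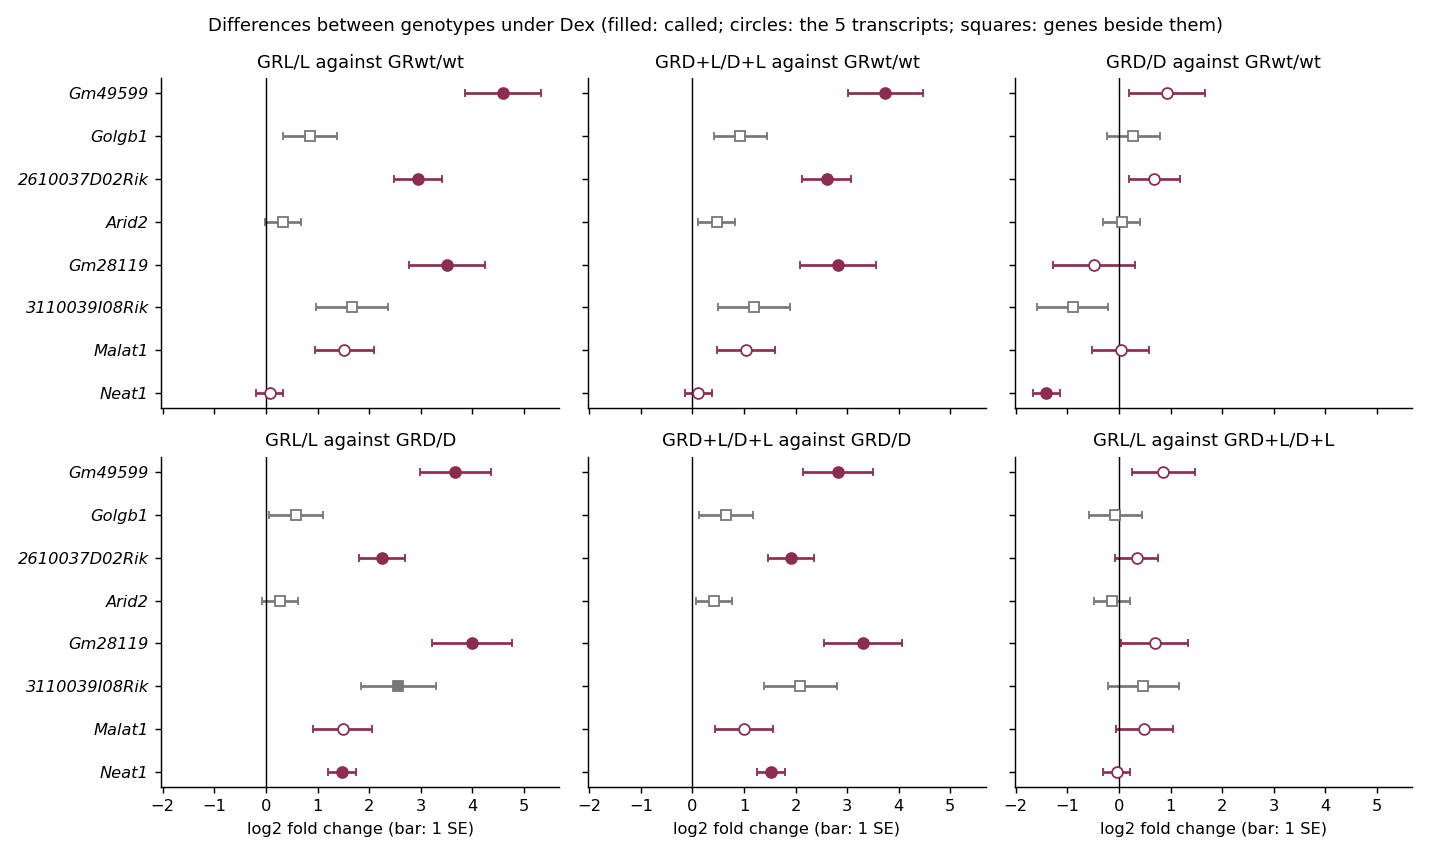
LFC ± 1 SE (horizontal axis) of the 5 transcripts (circles) and of Golgb1, Arid2 and 3110039I08Rik (squares) in the 6 genotype contrasts under Dex, with called values filled. Gm49599, 2610037D02Rik and Gm28119 are called in the 4 contrasts that set a genotype with the L change against one without it, Neat1 only in the 3 contrasts with GRD/D, and Malat1 in none.

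Responses to Dex were tested for Malat1 and Neat1 in all 4 genotypes and for the 3 chosen transcripts in GRD/D and GRD+L/D+L. Of these 14 responses, 0 were called by edgeR or by DESeq2 and 0 had an unadjusted p under 0.05. The lowest adjusted p by edgeR, 0.439, belonged to Neat1 in GRwt/wt (LFC 0.45 ± 0.26). Among all genes 0.159% were called for Dex in GRwt/wt and 0.0% in the other 3 genotypes. In GRD+L/D+L the responses were 0.01 ± 0.61 for Gm49599, 0.40 ± 0.41 for 2610037D02Rik, 0.17 ± 0.65 for Gm28119, 0.25 ± 0.55 for Malat1 and 0.25 ± 0.26 for Neat1. In GRD/D the response of Neat1 was -0.48 ± 0.29 and that of Malat1 was -0.30 ± 0.62. The chosen transcripts there had responses of -0.16 ± 0.77 for Gm49599, 0.13 ± 0.52 for 2610037D02Rik and -0.32 ± 0.88 for Gm28119. The SEs of the chosen transcripts leave room for responses past the LFC threshold. In GRL/L Malat1 was at -0.14 ± 0.55 and Neat1 at 0.07 ± 0.26. The responses of the chosen transcripts in GRL/L and GRwt/wt use the groups that chose them and are given as descriptions. Their LFCs in GRwt/wt were 0.13 for Gm49599, 1.44 for 2610037D02Rik and 1.45 for Gm28119, from levels near 0, and those in GRL/L were -0.01, -0.33 and 0.27. The GR core motif AGAACA, searched on both strands, was absent from the RefSeq promoters of Malat1 and from both promoters of Mir100hg (250 bases before to 50 after the start), and promoters of Neat1, 2610037D02Rik, Gm49599 and Gm28119 were not searched. The motif occurs in 19% of all 32851 RefSeq promoters of that length. The inverted repeat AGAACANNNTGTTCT, which contains that motif, was also absent from these promoters and occurs in 0.00913% of all.

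The chosen transcripts each lie in or beside a more abundant gene, so the counts of that gene were set beside theirs. Golgb1 was at 251 to 292 CPM in the 12 libraries with the L change and at 10.3 to 193 CPM in the other 11. Under Dex its LFC in GRL/L against GRwt/wt was 0.86 ± 0.52 (adjusted p = 0.337), and it was not called. In vehicle, in the contrasts with the libraries behind the choice, its LFC was 1.57 in GRL/L and 1.60 for GRD+L/D+L, and both met the call thresholds. Vehicle-treated GRwt/wt replicate 1 held 10.3 CPM of Golgb1, and without it these LFCs were 1.04 and 1.08. Per 100 Golgb1 counts, Gm49599 had 0.0351 to 0.341 counts in Dex-treated GRwt/wt, 0.216 to 0.4 in GRD/D, 2.09 to 3.22 in GRL/L and 1.03 to 1.87 in GRD+L/D+L. The groups with and without the L change did not overlap, but Gm49599 was chosen for its rise and Golgb1 was not, so nothing further is read from these ratios or from those of the other chosen transcripts.

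3110039I08Rik, within which Gm28119 lies, was at 131 to 306 CPM in the libraries with the L change and at 3.37 to 124 CPM in the others. It was called higher in GRL/L against GRD/D under Dex (LFC 2.57 ± 0.73, adjusted p = 0.0435) but not against GRwt/wt (LFC 1.67 ± 0.70, adjusted p = 0.169). In vehicle its LFC against GRwt/wt was 2.11 in GRL/L, which met the call thresholds, and 1.22 for GRD+L/D+L, which did not. Without vehicle-treated GRwt/wt replicate 1, with 3.37 CPM of this gene, they were 1.56 and 0.69. Per 100 counts of 3110039I08Rik, Gm28119 had 0.207 to 0.662 counts in Dex-treated GRwt/wt, 0.417 to 1.24 in GRD/D, 1.98 to 2.25 in GRL/L and 1.16 to 2.15 in GRD+L/D+L. GRD/D and GRD+L/D+L overlapped here under Dex but not in vehicle, where they were at 0.27 to 0.876 and 1.88 to 2.2.

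Arid2, next to 2610037D02Rik, had an LFC of 0.33 ± 0.35 in GRL/L against GRwt/wt under Dex (adjusted p = 0.605). Its vehicle LFCs against GRwt/wt were 1.05 in GRL/L and 1.18 for GRD+L/D+L, both past the call thresholds. Without vehicle-treated GRwt/wt replicate 1, which held 10.2 CPM of Arid2, they were 0.60 and 0.74, under the LFC threshold. Per 100 Arid2 counts, 2610037D02Rik had 0.201 to 0.543 counts in Dex-treated GRwt/wt, 0.441 to 0.737 in GRD/D, 1.88 to 2.69 in GRL/L and 1.5 to 1.83 in GRD+L/D+L. Malat1 had 62.9 to 130 counts per 100 Neat1 counts in Dex-treated GRwt/wt, 215 to 279 in GRD/D, 220 to 321 in GRL/L and 107 to 235 in GRD+L/D+L. In GRD/D against GRwt/wt, the LFCs under Dex were -1.40 for Neat1 and 0.04 for Malat1, and those in vehicle were -0.47 and 0.73. The source of the high ratio in GRD/D was not tested.

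**Figure D3:**
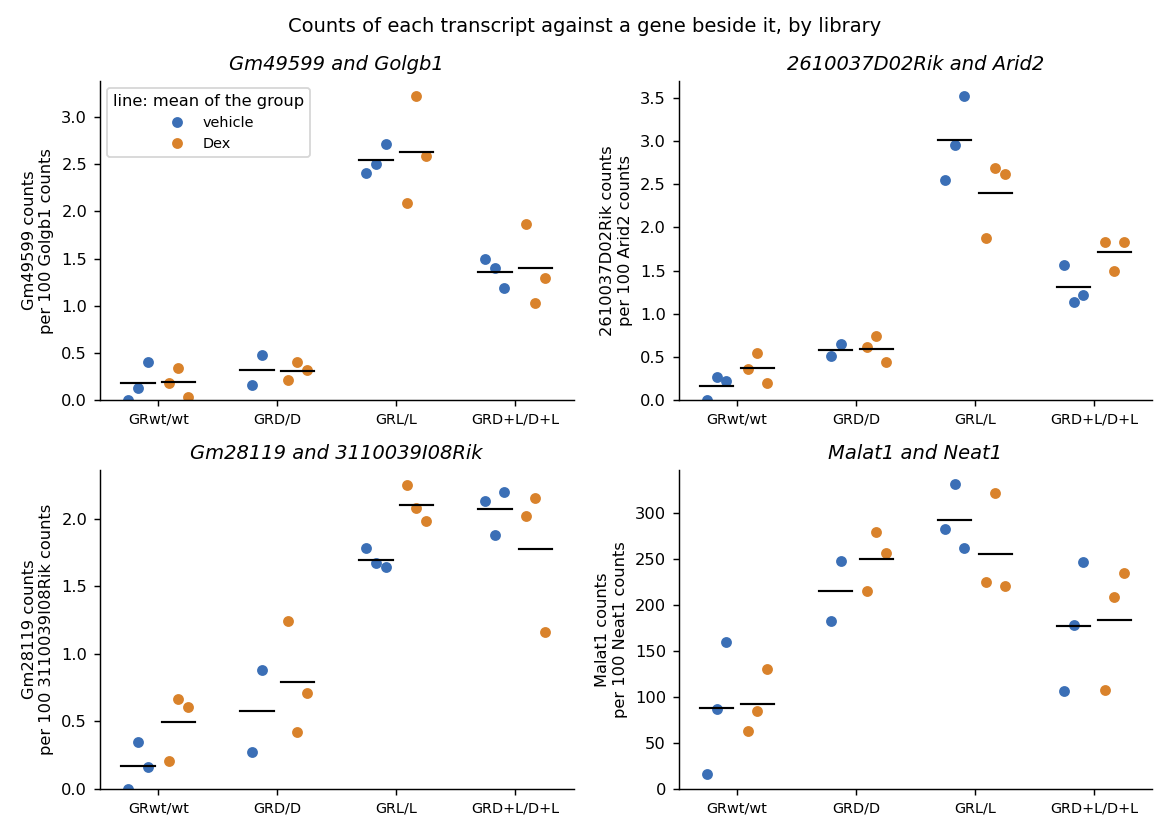
Counts of Gm49599, 2610037D02Rik and Gm28119 per 100 counts of Golgb1, Arid2 and 3110039I08Rik, and of Malat1 per 100 counts of Neat1 (vertical axes), in every library by genotype, vehicle in blue and Dex in orange, with a line at the mean. Under Dex, Gm49599 is at 0.0351 to 0.4 per 100 Golgb1 counts in GRwt/wt and GRD/D and at 1.03 to 3.22 in the 2 genotypes with the L change.

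Other gene models of the same classes were counted in the same contrasts. Without the 5 transcripts, 282 TEC and 41 sense intronic genes were tested, and in GRL/L against GRwt/wt under Dex 39 TEC genes (13.8%) and 3 sense intronic genes (7.32%) were called higher and 1 of each lower. Of 351 lincRNAs 13 (3.7%) were called higher, and of 13851 protein-coding genes 118 (0.852%). The median LFC was 0.94 for TEC, 1.06 for sense intronic, 0.21 for lincRNA and -0.03 for protein-coding genes. In GRD+L/D+L against GRwt/wt the medians were 0.77 for TEC, 1.04 for sense intronic and -0.03 for protein-coding genes, and in GRD/D 0.04, -0.03 and -0.0034. The 42 TEC and sense intronic genes called higher in GRL/L fell to 20, 8 and 24 without replicates 1, 2 and 3 of Dex-treated GRL/L and to 10 and 11 without replicates 1 and 3 of Dex-treated GRwt/wt. They rose to 95 and 67 without vehicle-treated GRwt/wt replicates 1 and 3. Genes of these classes can pass the filter through the libraries where they are high, and without the filter 30 of 1770 (1.69%) were called higher by edgeR and 88 of 1770 (4.97%) by DESeq2, beside 145 of 29404 and 440 of 29375 of all genes. Of all counts in a library, TEC and sense intronic genes, Gm49599 and Gm28119 included, took 0.048% to 0.0683% in the libraries with the L change and 0.0235% to 0.0455% in the others.

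**Figure D4:**
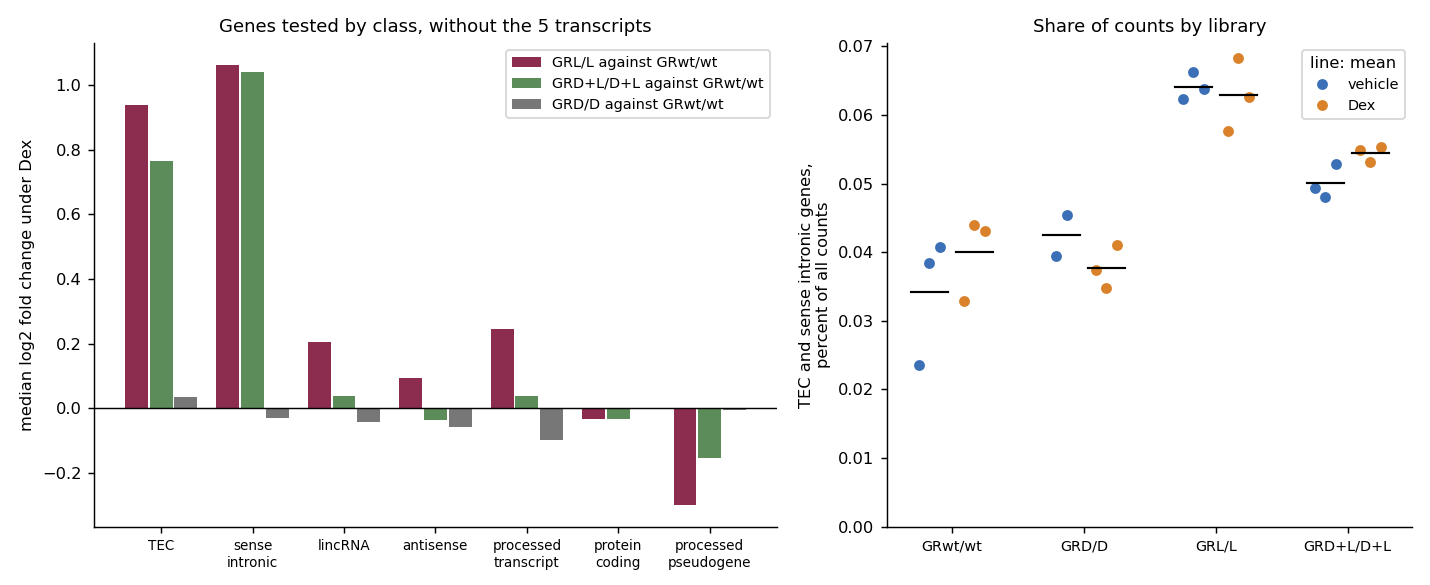
Left, median LFC under Dex (vertical axis) of the genes tested in each GENCODE class, without the 5 transcripts, in 3 genotypes against GRwt/wt. Right, percent of all counts in TEC and sense intronic genes in every library, vehicle in blue and Dex in orange with a line at the mean. TEC and sense intronic medians are 0.94 and 1.06 in GRL/L and near 0 in GRD/D, and all libraries with the L change have at least 0.048% of counts in these classes.

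A property of whole libraries moved with the same split. Across genes, the deviation of a gene's log2 level from its median over libraries had a Spearman correlation with transcript length of 0.121 to 0.322 in the 12 libraries with the L change and of -0.435 to -0.122 in the other 11. The corresponding correlations with GC content were -0.206 to 0.112 and -0.0558 to 0.684, and the highest value, 0.684, was in vehicle-treated GRwt/wt replicate 1. By sample, the length trend and the L change cannot be told apart. Gm28119 is short (298 bases), 2610037D02Rik has a longest transcript of 2997 bases, and Gm49599, Malat1 and Neat1 have 5095, 6983 and 20771 bases, against a median of 3228 bases for the genes tested.

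When the length and GC trend of each library was removed, an alternative chosen after the data had been seen, the calls of the 3 chosen transcripts under Dex were kept. In GRL/L against GRwt/wt the LFCs were then 4.37 for Gm49599, 2.76 for 2610037D02Rik and 3.68 for Gm28119, with adjusted p of 0.000729, 0.000574 and 0.00823. Malat1 was then called higher in GRL/L, against GRwt/wt (LFC 1.17, adjusted p = 0.0293) and against GRD/D (LFC 1.19, adjusted p = 0.0246). Neat1 lost all 3 of its calls, with an LFC of -1.51 in GRD/D against GRwt/wt (adjusted p = 0.0768), of 0.89 in GRL/L against GRD/D (adjusted p = 0.167) and of 0.95 in GRD+L/D+L against GRD/D (adjusted p = 0.127).

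Further noncoding and nuclear RNA genes were read from lists. Of 43 known long noncoding RNAs, 37 were tested, and in GRL/L against GRwt/wt under Dex 7 were called higher and 0 lower, where 1.37% of all genes were called higher, and the median LFC was 0.22 against -0.02 for all genes. Meg3, an imprinted maternally expressed RNA, was at 190 to 321 CPM in Dex-treated GRwt/wt and at 1270 to 1700 CPM in GRL/L (LFC 2.58, adjusted p = 0.000704). Mirg, of the same imprinted cluster, had an LFC of 1.34 (adjusted p = 0.0205), and Airn, which silences the paternal Igf2r allele, of 1.80 (adjusted p = 0.0111). In GRD+L/D+L against GRwt/wt, 1 of 37 was called higher (0.876% of all genes), Meg3 (495 to 901 CPM, LFC 1.64, adjusted p = 0.00992). Against GRD/D, 6 of 37 were called higher in GRL/L (1.94% of all genes) and 6 of 37 in GRD+L/D+L (1.75% of all genes), among them Firre, an X-linked nuclear RNA (LFC 1.91, adjusted p = 6.06e-05, and LFC 1.27).

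Genes of the bodies that hold Malat1 and Neat1 were counted in the same way. Of 20 nuclear speckle genes 1 was called higher in GRL/L against GRwt/wt under Dex, where 1.37% of all genes were, with a median LFC of 0.42 and 19 of 20 above 0, and of 16 paraspeckle genes edgeR called 0 in either direction (2 had an unadjusted p under 0.05), with a median of 0.20. The speckle gene called was Srsf5, a splicing factor, at 117 to 126 CPM in GRwt/wt and 283 to 309 CPM in GRL/L (LFC 1.29, adjusted p = 0.00592). Of 16 genes known for introns kept in nuclear transcripts 1 was called higher, Ccnl2, which encodes a cyclin linked to splicing (LFC 1.22, adjusted p = 0.00244), while each of the 16 had an LFC above 0 and the median was 0.81. Against GRD/D, 5 of these 16 were called higher in GRL/L, as was 1 of them for GRD+L/D+L, where 1.94% and 1.75% of all genes were. In GRD/D against GRwt/wt the median was -0.15. Of 13 nuclear RNA decay genes 1 was called higher, Pabpn1, the nuclear poly(A)-binding protein, in GRL/L against GRwt/wt (LFC 1.36, adjusted p = 0.00491) and likewise for GRD+L/D+L (LFC 1.29, adjusted p = 0.00809). Of all genes, 1.37% and 0.876% were called higher in these contrasts.

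The genes with patterns most like 4 of the transcripts were found by Spearman correlation of log2(CPM + 1) over the 23 libraries, which share genotype groups and the length trend, and the values are descriptions. For Gm49599 they were 2610037D02Rik (0.969), Zfp445 (0.963) and Usp7 (0.963). For 2610037D02Rik they were Gm49599, Usp40 (0.956) and Usp7 (0.956). For Gm28119 they were Dzip3 (0.958), its host 3110039I08Rik (0.956) and Mga (0.945). For Malat1 they were Prpf39 (0.975), Gm28941 (0.966) and Ttc14 (0.964). Malat1 itself correlated with Gm49599 at 0.873. Neat1 had correlations of 0.46 to 0.592 with the other 4, the highest with Gm28119.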

How the data were processed

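RNA of the cultured cells was sequenced as 23 TruSeq libraries. Per the submitters' notes, the authors used FastQC, HISAT2 2.1.0 and featureCounts 2.0.0 on mm10 (GRCm38), and the deposited values are raw counts of uniquely mapped reads per Ensembl gene. The annotation release and strand setting are not given in the sources used here, so reads of overlapping genes may be assigned to either or to neither. This holds for Mir125b-1 and Gm28119 too. GENCODE M21 supplied names and coordinates for 55227 of 55487 identifiers.

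Counts were fitted as deposited in edgeR 4.0.16 (R 4.3.3) over all 23 libraries, with TMM scaling, filterByExpr (15748 genes) and quasi-likelihood tests with a prior count of 0.125 and Benjamini-Hochberg adjustment over all genes. CPM used total counts scaled by the TMM factors. p-values measure the spread between these samples. Dex and vehicle libraries were fitted as independent even where they pair, so the p-values between genotypes may be too small. The code was tested on simulated data. DESeq2 1.42.0, other scalings and filters, left-out libraries and a replicate block were alternatives. Members and lists were chosen with earlier results of these data known. Named genes were the 5 members, the genes beside them, called genes of the lists and the 3 genes most like each member, which for Neat1 are not reported here.

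Same-numbered Dex and vehicle libraries deviated together in GRL/L (correlations 0.322, 0.644 and 0.631) and GRD+L/D+L (0.887, 0.788 and 0.652), so replicate numbers pair the samples there. The numbers did not pair them throughout in GRwt/wt (0.548, 0.0266 and -0.0265) or in GRD/D (0.283 and -0.199). In GRwt/wt, vehicle replicate 2 deviated with Dex replicate 3 (0.544) and vehicle replicate 3 with Dex replicate 2 (0.375). The treatments may therefore share cultures in GRwt/wt as well. The deviations of the vehicle-treated GRD/D libraries mirror each other, so little can be read there.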

Additional observations from a re-analysis of the deposited data

How the results depend on the processing

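The 3 chosen transcripts kept their calls in GRL/L against GRwt/wt under Dex in every alternative that tested them (a minimum of 10 counts in every library left them out), with LFCs over left-out libraries of 4.18 to 5.92 for Gm49599, 2.67 to 3.45 for 2610037D02Rik and 2.97 to 4.09 for Gm28119. In GRD+L/D+L against GRwt/wt under Dex the LFCs over left-out libraries were 3.32 to 5.06 for Gm49599, 2.33 to 3.11 for 2610037D02Rik and 2.29 to 3.40 for Gm28119. All 3 lost their calls in this contrast when only these 2 groups were fitted, where 8 genes were called in place of 433. Counts of genes called also moved by over 1.5 times with DESeq2 (778, 811, 708 and 1042 in place of 408, 433, 424 and 568 for GRL/L, then GRD+L/D+L, against GRwt/wt and next against GRD/D) and when only the groups compared were fitted (744 in place of 408 and 1034 in place of 424), without an expression filter (263 in place of 424) and with at least 10 counts in every library (271 and 277 in place of 408 and 433). Without vehicle-treated GRwt/wt replicates 1 and 3 the 4 counts were 1193, 1076, 882 and 1348. The counts of 40 for GRD/D against GRwt/wt under Dex, 160 for GRD+L/D+L against GRD/D in vehicle and 19 for GRL/L against GRD+L/D+L under Dex became 283, 474 and 162 with DESeq2, 195, 0 and 2 when only the groups compared were fitted, and 487, 685 and 114 without those replicates. The 40 also became 21 with upper-quartile scaling and 74 with the length and GC trend removed, the 160 became 105 without the expression filter, and the 19 became 29 with the trend removed. Over left-out libraries the first count ranged from 148 (without Dex-treated GRL/L replicate 2) to 952 (without vehicle-treated GRwt/wt replicate 1). The lowest and highest counts for GRD+L/D+L against GRwt/wt and for GRL/L, then GRD+L/D+L, against GRD/D under Dex were 94 (without Dex-treated GRD+L/D+L replicate 2) and 959 around 433, 199 (without Dex-treated GRD/D replicate 1) and 794 around 424, and 260 (without the same library) and 1148 around 568, each highest without vehicle-treated GRwt/wt replicate 1. For GRD/D against GRwt/wt they were 5 (without Dex-treated GRD/D replicate 3) and 306 (without vehicle-treated GRwt/wt replicate 3) around 40. For GRL/L against GRD+L/D+L they were 3 (without Dex-treated replicate 2 of either genotype) and 46 around 19, and for GRD+L/D+L against GRD/D in vehicle 7 (without either GRD/D library) and 470 around 160, both highest without vehicle-treated GRwt/wt replicate 1. The directions that reversed belonged to values that had not passed the test. With the length and GC trend removed, Neat1 against GRwt/wt under Dex was at -0.62 in GRL/L, with -0.55 for GRD+L/D+L, and Malat1 was at -0.0216 in GRD/D. Over left-out libraries under Dex, Neat1 against GRwt/wt ranged from -0.0916 to 0.20 in GRL/L, from -0.12 to 0.30 for GRD+L/D+L, and from -0.22 to 0.20 in GRL/L against GRD+L/D+L. In GRD/D against GRwt/wt, Gm28119 ranged from -1.03 to 0.10 and Malat1 from -0.26 to 0.25. With the replicate block 0 of 14 Dex responses were called (smallest adjusted p = 0.132), with LFCs from -0.75 to 0.96 in place of -0.48 to 0.45, and the block was run for these responses only. At these depths 1 CPM was about 18.5 counts at the median, which limits the 3 chosen transcripts in GRwt/wt.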
